A study of Mus musculus with 56 samples.

Results

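Liver RNA of Fmr1 knockout (KO) mice was compared with liver RNA of wild-type (WT) mice, using 6 of the 56 samples of the study. These were the 3 samples labelled Liver, WT and the 3 labelled Liver, Fmr1 KO. The labels give tissue and genotype only. They name no Fmr1 allele, strain, age or sex, and do not say that each sample came from a separate mouse, so p-values measure the spread between these samples. RNA was total RNA from whole tissue, and fewer cells of a type and less RNA per cell cannot be told apart in it. The 6 libraries held 13230785 to 16168225 counts over 12259 genes, and the 10 most abundant genes took 17.3% to 18.9% of each.

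FMRP, the protein made from Fmr1, binds messenger RNAs and is known mainly for its part in repressing translation in neurons. Liver is made largely of hepatocytes, which run glucose, lipid and bile acid metabolism, secrete most plasma proteins and clear drugs through cytochrome P450 and conjugating enzymes. Several P450 genes of the mouse liver differ between males and females under the control of growth hormone, and others are induced by drugs. Immediate early genes are switched on within minutes of a stimulus, in liver as elsewhere.

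Fmr1 itself (chrX:68678541-68717963, GRCm38) was measured first. Its level was 19.6, 25.3 and 25.8 CPM (read counts scaled to a common library size) in WT replicates 1, 2 and 3, and 7.64, 7.77 and 7.68 CPM in the KO replicates. All 3 KO libraries lay below all 3 WT libraries, and some Fmr1 RNA remained in each KO library. The log2 fold change was -1.61 ± 0.16 (standard error, SE), with an edgeR adjusted p of 0.00312. Its relatives Fxr1 and Fxr2, which encode similar RNA-binding proteins, were not called and are named after their values were seen. Fxr2 was 46.2, 45.1 and 45.1 CPM in WT and 36.7, 41.2 and 36.2 CPM in KO (log2 fold change -0.26 ± 0.11, edgeR adjusted p = 0.437).

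Of 11928 genes tested, 49 were called at an adjusted p under 0.05 (0.411%), with 20 higher (0.168%) and 29 lower (0.243%) in KO. In all 49 the 3 KO values lay on one side of the 3 WT values, a separation that 17.3% of all genes tested showed. The 49 genes were sorted by the size of the change. There were 11 that changed at least 8-fold (3 or more on the log2 scale), 29 that changed by 1 to 3 on the log2 scale, and 9 that changed by less than 1. The boundary at 3 fell inside a run of close values, with Bhlhe41 at -3.09, Dusp1 at -3.03 and Gm5512 at -3.02 on one side and Tmem51 at -2.99 and Slc25a25 at -2.96 on the other. Of the 49, the number still called was 49, 37 and 28 without WT replicate 1, 2 or 3, and 19, 18 and 13 without KO replicate 1, 2 or 3. The 12 genes called in all 6 of these fits were Eno1b, Cyp2c69, Cyp2c40, Wdr72, Tgfbr2, Bhlhe41, Tmem254a, Ihh, Fmr1, Csrnp1, Camk1d and Esrrg.

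Among the 11 genes with the largest changes, some were close to absent in one genotype and steady in the other. Wdr72, whose human counterpart is needed for tooth enamel, was 6.74, 6.75 and 6.58 CPM in WT and 0.344, 0.0747 and 0.274 CPM in KO. The WT values differed by 1.03-fold at most, and the lowest of them was 19.1 times the highest KO value (log2 fold change -4.78 ± 0.36, edgeR adjusted p = 0.000951). Esrrg, an orphan nuclear receptor, went the other way, with 0.136, 0.122 and 0.151 CPM in WT and 2.20, 2.09 and 2.13 CPM in KO. It rose by 3.90 ± 0.38 on the log2 scale (edgeR adjusted p = 0.00312). Gm5512, annotated as a transcribed pseudogene, was 0.885, 1.09 and 1.06 CPM in WT and 0.138, 0.0747 and 0.137 CPM in KO, where it rested on 1 or 2 counts per library (log2 fold change -3.02 ± 0.47, edgeR adjusted p = 0.0362). It was called in 1 of the 6 fits that left out a library, while Wdr72 and Esrrg were called in all 6.

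Raet1b, of the family of ligands for the natural killer cell receptor NKG2D, had 23, 69 and 28 counts in WT and 0 counts in each KO library. Against a floor of 3 counts over the KO group, it was at least 38.3-fold lower in KO (edgeR adjusted p = 0.0339). Eno1b, a second copy of the glycolytic enzyme enolase 1 (chr18:48045335-48048412), was 191, 161 and 93.7 CPM in WT and 2.48, 1.27 and 2.13 CPM in KO. Its WT values spread 2.04-fold, and the gap to KO was far wider, at 37.8-fold between the nearest libraries (log2 fold change -6.23 ± 0.35, edgeR adjusted p = 0.000285). Eno1, the parent gene, was 292, 278 and 431 CPM in WT and 658, 467 and 596 CPM in KO, and was not called (log2 fold change 0.78 ± 0.20, edgeR adjusted p = 0.165). Reads of such near-identical copies can be split between them, so both values are uncertain, and Eno1 is named here after its values were seen.

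**Figure D1:**
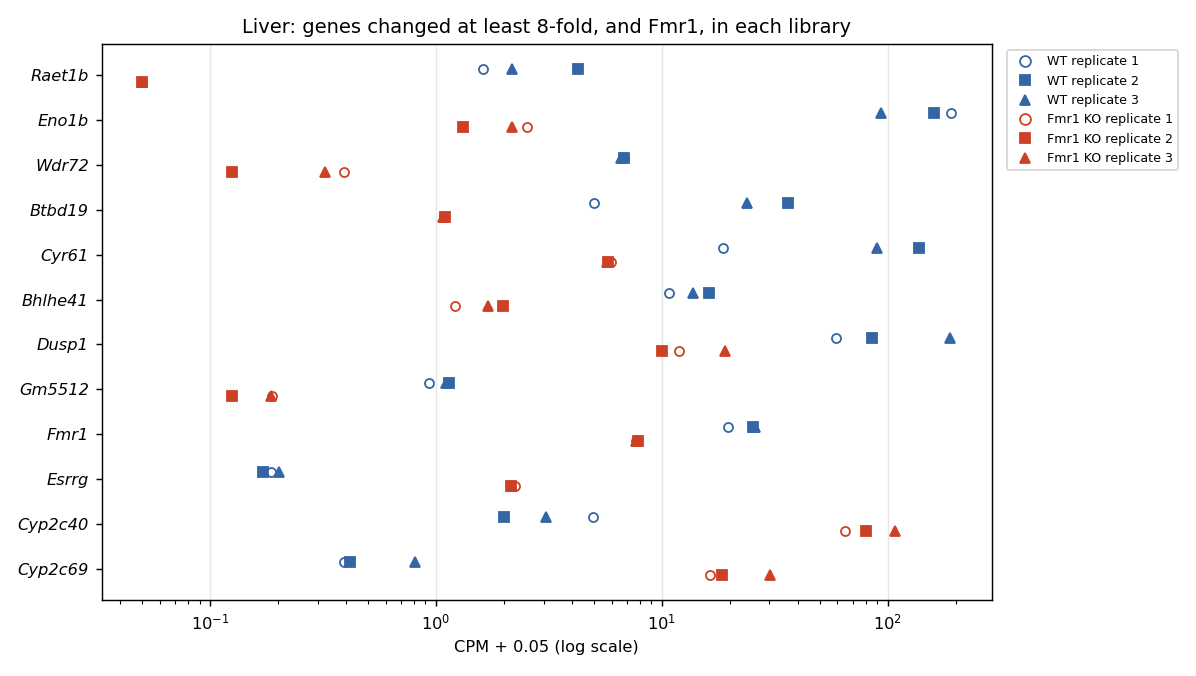
CPM + 0.05 on a log axis for the 11 genes changed at least 8-fold and for Fmr1, with 1 point per library (blue WT, red KO, marker shape for the replicate). The KO points of Raet1b stand for 0 counts. The WT points of Wdr72 and Gm5512 and the KO points of Esrrg lie close together, while the WT points of Btbd19 and Cyr61 spread over 7.30-fold and 7.41-fold.

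In the other large decreases the level fell from a WT group that varied. Btbd19 was 4.97, 36.3 and 23.7 CPM in WT against 1.03, 1.05 and 1.03 CPM in KO (log2 fold change -4.38 ± 0.69, edgeR adjusted p = 0.0362). Cyr61, a secreted matrix protein of the immediate early class, was 18.7, 138 and 90.1 CPM in WT and 5.92, 5.75 and 5.69 CPM in KO (-3.83 ± 0.61, edgeR adjusted p = 0.0392). In both genes WT replicate 1 was the lowest WT library. Dusp1, a phosphatase that switches off MAP kinases, was 59.2, 85.5 and 188 CPM in WT and 11.8, 10.0 and 18.9 CPM in KO (-3.03 ± 0.43, edgeR adjusted p = 0.0266). Bhlhe41, a repressor of the circadian clock, was steadier, with 10.8, 16.1 and 13.7 CPM in WT and 1.17, 1.94 and 1.65 CPM in KO (-3.09 ± 0.25, edgeR adjusted p = 0.00123).

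The 2 largest increases were neighbouring cytochrome P450 genes on chromosome 19, known in mice for higher expression in female liver. Cyp2c69 (chr19:39842814-39886799, minus strand) was 0.340, 0.365 and 0.756 CPM in WT and 16.4, 18.5 and 30.2 CPM in KO. Cyp2c40 (chr19:39767071-39812814, minus strand) was 4.90, 1.95 and 3.02 CPM in WT and 65.1, 80.3 and 108 CPM in KO. Every KO library exceeded every WT library, by at least 21.7-fold for Cyp2c69 and 13.3-fold for Cyp2c40. The log2 fold changes were 5.49 ± 0.37 and 4.68 ± 0.33, each with an edgeR adjusted p of 0.000702.

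The sequences just upstream of both genes are shown because both genes rose and the sequences are nearly the same. Each is the 250 bases before the annotated start, read 5′ to 3′ on the gene's strand, from RefSeq on GRCm38.p6 (chr19:39886770-39887019 and chr19:39812815-39813064, minus strand). The Cyp2c69 window overlaps the gene span given above, which ends at 39886799, so part of it lies inside that annotated gene. Capitals mark CAAAGTCCA, a motif known for binding HNF4, a nuclear receptor of hepatocytes.
Cyp2c69: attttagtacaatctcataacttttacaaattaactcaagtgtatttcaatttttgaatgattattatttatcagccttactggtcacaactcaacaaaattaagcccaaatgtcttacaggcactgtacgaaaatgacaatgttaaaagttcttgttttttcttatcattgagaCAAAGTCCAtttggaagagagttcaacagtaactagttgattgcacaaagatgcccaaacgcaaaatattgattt
Cyp2c40: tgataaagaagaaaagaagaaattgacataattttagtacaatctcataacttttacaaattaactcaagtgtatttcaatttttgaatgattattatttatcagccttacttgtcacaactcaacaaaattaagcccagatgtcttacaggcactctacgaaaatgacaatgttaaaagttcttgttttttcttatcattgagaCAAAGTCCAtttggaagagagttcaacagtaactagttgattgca
With 1 window shifted by 30 bases, 217 of the 220 bases compared were identical (98.6%). The same comparison gave 93.0% identity between Cyp2c69 and Cyp2c67 over 200 bases, and 66.1% between Cyp2c69 and Cyp2c68 over 248 bases. CAAAGTCCA, searched on both strands, was in the upstream 250 bases of all 4 of these genes, of 6 of the 13 Cyp2c genes with an entry, and of 0.451% of the 27025 genes in the table. Among the 37 called genes with an entry it was in 3, Cyp2c69, Cyp2c40 and Cyp3a11, and Cyp2c67 and Cyp2c70, which hold it too, were not called. The log2 fold change of Cyp2c70 was -0.23 ± 0.29 (edgeR adjusted p = 0.823).

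Other genes of the same P450 cluster were higher by less or did not differ beyond the spread, and they are named here after their values were seen. Cyp2c68, next to Cyp2c40, was 133, 186 and 150 CPM in WT and 273, 289 and 350 CPM in KO, with no overlap (log2 fold change 0.96 ± 0.16, edgeR adjusted p = 0.0504). Cyp2c38 was 3.27, 12.9 and 5.67 CPM in WT and 23.9, 25.3 and 41 CPM in KO (2.03 ± 0.43, edgeR adjusted p = 0.106). Cyp2c67 was 225, 242 and 248 CPM in WT and 236, 273 and 295 CPM in KO, with overlapping groups (0.17 ± 0.12, edgeR adjusted p = 0.665). Because the deposited counts can split reads among these paralogs, single members of the cluster are uncertain.

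**Figure D2:**
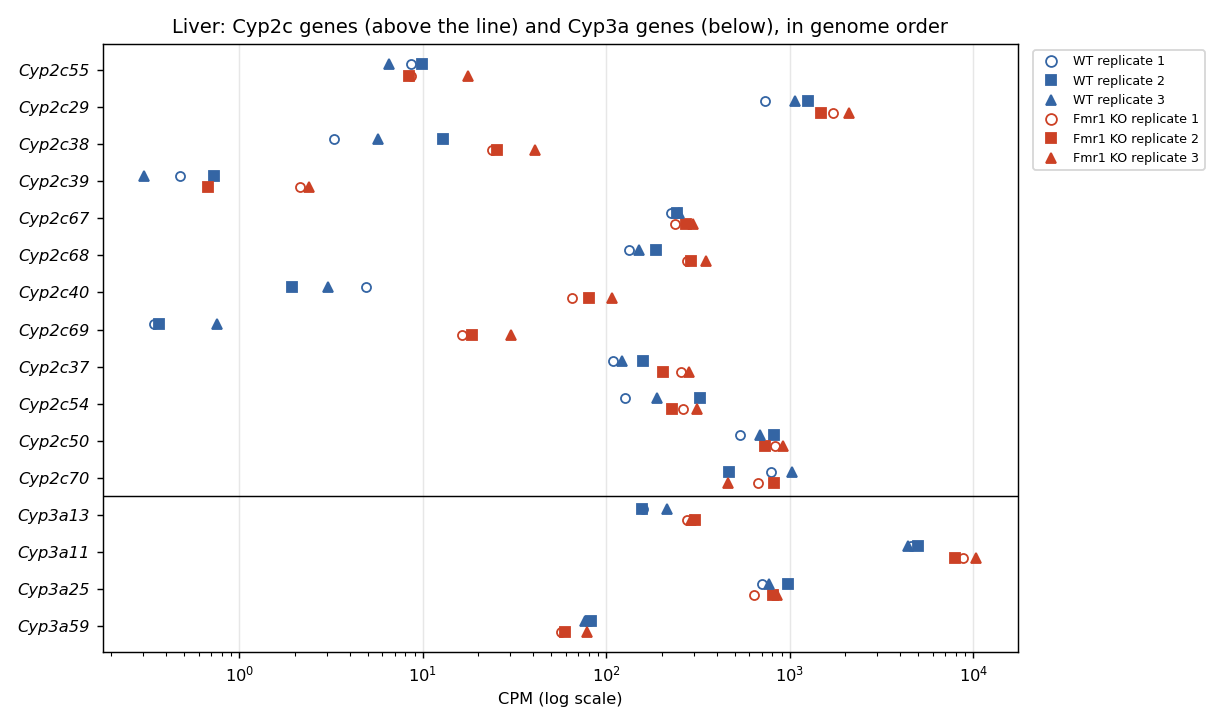
CPM on a log axis for 12 Cyp2c genes on chromosome 19 (above the line) and 4 Cyp3a genes on chromosome 5 (below), with 1 point per library. The WT and KO points of Cyp2c40 and Cyp2c69 lie far apart, and those of Cyp2c68 and Cyp3a11 differ by 0.96 and 0.95 on the log2 scale.

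Smaller changes were found in 3 enzymes of drug and fatty acid metabolism. Cyp3a11, a main drug-metabolising P450 of mouse liver (chr5:145854426-145879964), was 4581, 4958 and 4394 CPM in WT and 8741, 7946 and 10322 CPM in KO, and it rose by 0.95 ± 0.13 on the log2 scale (edgeR adjusted p = 0.0227). Ugt1a9, a glucuronidating enzyme, was 72.9, 56.6 and 70.7 CPM in WT and 124, 140 and 133 CPM in KO (0.99 ± 0.13, edgeR adjusted p = 0.0227). The Ugt1a genes share their last exons, so this value is uncertain as to which of them changed. Cyp4a12a, a fatty acid hydroxylase known for higher expression in males, fell from 1081, 878 and 1254 CPM in WT to 522, 606 and 544 CPM in KO (-0.94 ± 0.15, edgeR adjusted p = 0.0367). Cyp3a11 and Ugt1a9 were called in 3 of the 6 fits that left out a library, and Cyp4a12a in 2.

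Of 37 P450 genes of families 1 to 3 tested, 3 were called, all higher (Cyp2c69, Cyp2c40 and Cyp3a11). DESeq2 called 8, all higher, and edgeR called 5 and 6 without WT replicate 1 or 2, all higher. At an unadjusted p under 0.05, 9 were higher and 2 lower, and the list's median log2 fold change was 0.02, against 0.00 for all genes, of which 11.4% passed that p. Among 55 genes of conjugation and transport, Ugt1a9 alone was called by edgeR (DESeq2 1 higher and 2 lower). At the unadjusted p 9 were higher and 4 lower, but 9 and 11 without WT replicate 2, and 2 and 5 without KO replicate 3. Of 24 genes known as male-biased, Cyp4a12a was called lower (DESeq2 4 lower), and 6 were lower and 0 higher at the unadjusted p (median log2 fold change -0.25). Of 27 genes known as female-biased, 9 could be tested. The 2 called were Cyp2c69 and Cyp2c40, by edgeR and DESeq2 alike, and the other 7 were not below an unadjusted p of 0.05 (median log2 fold change 0.15). Without WT replicate 2, 5 male-biased genes were called lower and 3 female-biased genes higher. At the unadjusted p 14 male-biased genes were then lower and 6 of the 9 female-biased genes higher, with medians of -0.45 and 1.3. Without WT replicate 1, 3 male-biased genes were called, and without any other single library edgeR called 0 (4 or 5 lower at an unadjusted p under 0.05). The female-biased genes summed to 60.1, 210.4 and 78.3 CPM in WT and 190, 215 and 274 CPM in KO, so WT replicate 2 lay among the KO libraries. Moxd1, a male-biased gene named after its values were seen, was 149, 1.09 and 148 CPM in WT and 0.550, 1.12 and 0 CPM in KO, so WT replicate 2 lay with the KO libraries. The Y-linked genes Ddx3y, Uty, Kdm5d and Eif2s3y were read in every library, and none was called. Summed, they gave 145, 185 and 190 CPM in WT and 172, 184 and 179 CPM in KO.

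Among the intermediate increases were genes of cell signalling. Tgfbr2, the type II receptor for TGF-beta (chr9:116084293-116175360), was 10.8, 12.8 and 9.98 CPM in WT and 51.2, 43.1 and 39.4 CPM in KO, with no overlap. It rose by 1.99 ± 0.16 on the log2 scale (edgeR adjusted p = 0.00117). Camk1d, a calcium/calmodulin-dependent kinase, was 13.8, 22.7 and 14.7 CPM in WT and 68.7, 69.8 and 63.6 CPM in KO (1.98 ± 0.19, edgeR adjusted p = 0.00312). In glycogen metabolism, Ppp1r3b, which brings protein phosphatase 1 to glycogen in liver, was 47.7, 97.3 and 102 CPM in WT and 308, 276 and 304 CPM in KO (1.85 ± 0.26, edgeR adjusted p = 0.0237). Tmem254a was 91.0, 62.0 and 72.5 CPM in WT and 269, 255 and 238 CPM in KO (1.76 ± 0.16, edgeR adjusted p = 0.00258).

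The next 6 increases by size were Plac9b, A730008H23Rik, Banp, Glb1, Slc17a1 and Mme, with log2 fold changes from 1.64 down to 1.31. Glb1, the lysosomal beta-galactosidase, was 4.83, 6.44 and 6.73 CPM in WT and 16.0, 12.9 and 16.4 CPM in KO. Mme, the peptidase neprilysin, was 11.4, 16.8 and 18.2 CPM in WT and 33.6, 35.8 and 45.8 CPM in KO. Neither gene's groups overlapped (edgeR adjusted p = 0.0238 and 0.0339). Slc17a1, a phosphate and urate transporter, was 4.36, 5.17 and 5.52 CPM in WT and 11.5, 10.9 and 15.4 CPM in KO (edgeR adjusted p = 0.0309).

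Among the intermediate decreases, Slc25a25, a mitochondrial carrier of ATP-magnesium and phosphate, was 425, 782 and 653 CPM in WT and 103, 49.6 and 85.6 CPM in KO. It fell by 2.96 ± 0.31 on the log2 scale (edgeR adjusted p = 0.0045). Tmem51 was 39.2, 37.8 and 17.6 CPM in WT and 2.75, 4.18 and 5.01 CPM in KO (-2.99 ± 0.34, edgeR adjusted p = 0.00742). Ihh, a hedgehog ligand, was 9.12, 9.30 and 11.9 CPM in WT and 1.44, 1.57 and 2.19 CPM in KO (-2.53 ± 0.23, edgeR adjusted p = 0.00292). All 3 had no overlap between genotypes. Dhtkd1, an enzyme of lysine breakdown, was 67.7, 113 and 123 CPM in WT and 21.3, 26.5 and 25.8 CPM in KO (-2.04 ± 0.22, edgeR adjusted p = 0.00588).

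The remaining decreases included Csrnp1, Plk3 and Tob1. Csrnp1, a nuclear protein of the early response class, was 39.6, 44.9 and 76.2 CPM in WT and 8.12, 6.50 and 9.33 CPM in KO (-2.74 ± 0.27, edgeR adjusted p = 0.00312). Plk3, a stress-responsive kinase, was 115, 226 and 327 CPM in WT and 56.8, 43.2 and 43.6 CPM in KO (-2.22 ± 0.33, edgeR adjusted p = 0.0323). Tob1, an antiproliferative protein, was 242, 435 and 511 CPM in WT and 105, 89.2 and 118 CPM in KO (-1.93 ± 0.26, edgeR adjusted p = 0.0198). In each of these 3 genes WT replicate 1 was the lowest WT library and still exceeded every KO library. Reads of Csrnp1 and Cx3cr1, Slc25a25 and Naif1, Dusp1 and Ergic1, Plk3 and Tctex1d4, Glb1 and Tmppe, and Wdfy1 and Mrpl44 may be shared, since each pair overlaps and the use of strand in counting is not stated. Clec2h, a C-type lectin, fell from 36.6, 35.2 and 26.5 CPM to 7.09, 12 and 11.4 CPM (-1.69 ± 0.22, edgeR adjusted p = 0.0174).

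**Figure D3:**
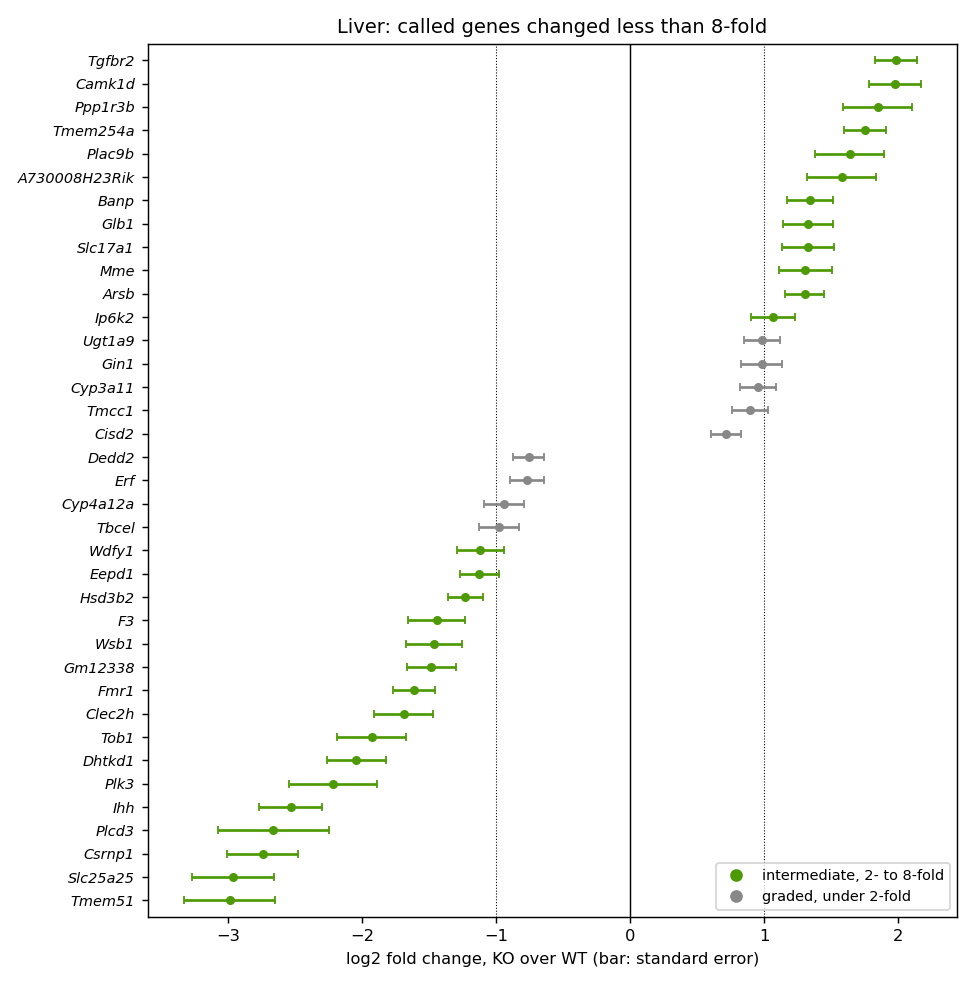
Log2 fold change of KO over WT (x axis) with its SE for 37 called genes that changed less than 8-fold, from Tmem51 at -2.99 to Tgfbr2 at 1.99. The 28 intermediate genes drawn (green) lie beyond 1 on either side and the 9 graded genes (grey) within it, from Tbcel at -0.98 to Ugt1a9 at 0.99.

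The summed level of the immediate early genes was low in every KO library and in 1 of the 3 WT libraries. Their CPM summed to 622 in WT replicate 1, 4028 in WT replicate 2 and 5235 in WT replicate 3, against 567, 413 and 358 in the KO libraries. Of 24 tested, 2 were called, Dusp1 and Cyr61, both lower. At an unadjusted p under 0.05, 21 were lower and 0 higher, with a median log2 fold change of -2.23, but only 9 had groups that did not overlap. Fos, named after its values were seen like the next 2 genes, was 3.13, 386 and 642 CPM in WT and 6.74, 1.79 and 2.40 CPM in KO. Jun was 45.3, 460 and 841 CPM in WT and 20.2, 16.6 and 13 CPM in KO. Egr1 was 7.49, 1160 and 1263 CPM in WT and 137, 44.5 and 11.8 CPM in KO. WT replicate 1 lay among the KO libraries for Fos, below them all for Egr1, and above them for Jun. Without WT replicate 1, 18 of 24 were called, all lower, and 4 and 1 were called without WT replicate 2 or 3. Without any single KO library edgeR called 0, with 15 to 21 lower at an unadjusted p under 0.05. DESeq2 called 11 of the 25 it tested, all lower.

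Other genes that WT replicate 1 set apart lie beside these. WT replicate 1 was at least 4-fold below both other WT libraries for 34 of the 11928 genes tested, WT replicate 2 for 20, and WT replicate 3 for 1, while the KO libraries were so for 0, 2 and 1. It was the lowest WT library in 19 of the 29 genes called lower. Among 22 heat shock genes none was called by edgeR (2 higher and 4 lower at an unadjusted p under 0.05, DESeq2 2 lower). Dnajb1, a co-chaperone, was 40.3, 504 and 648 CPM in WT and 41.4, 43.3 and 42.3 CPM in KO. Hspa1a, the inducible chaperone HSP70, was 11.5, 163 and 143 CPM in WT and 15.2, 8.29 and 6.72 CPM in KO. Hspa1b followed with 71.9, 752 and 595 CPM in WT and 111, 77.1 and 70.6 CPM in KO. Without WT replicate 1, 8 of the 22 were called lower. The part of WT replicate 1 in the other decreases was not tested.

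**Figure D4:**
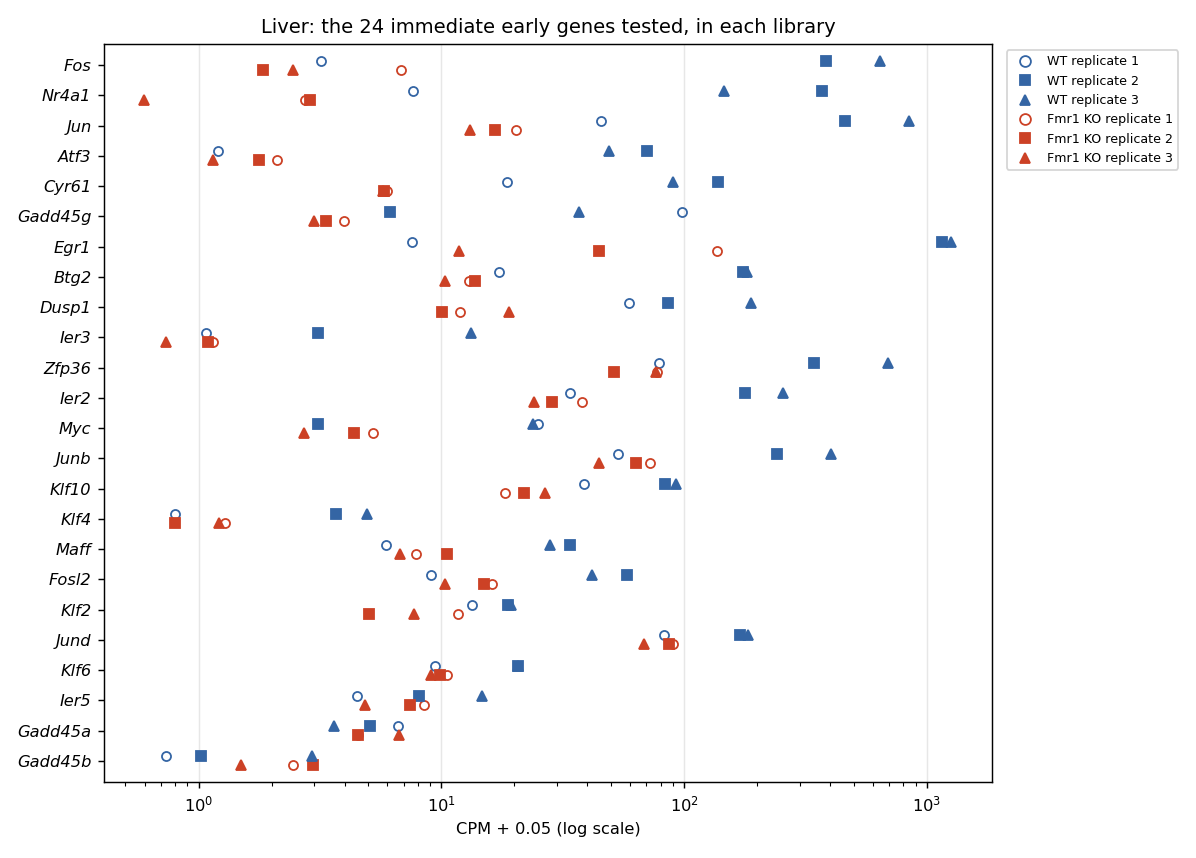
CPM + 0.05 on a log axis for the 24 immediate early genes tested, with 1 point per library (blue WT, red KO, open circles for replicate 1), sorted by log2 fold change. The open blue circles of WT replicate 1 lie near the red KO points for Fos, Atf3, Btg2 and Junb, with the other WT points far to the right, while for Gadd45g and Myc WT replicate 2 is the lowest WT point.

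The sequences upstream of Dusp1 and Slc25a25 are shown because both genes fell and both hold the full cyclic AMP response element TGACGTCA, a known binding site of CREB. The element (in capitals) ends 135 and 142 bases before the annotated start. Each is the 250 bases before the start, from RefSeq on GRCm38.p6, on the minus strand of chr17:26508473-26508722 and chr2:32424067-32424316 (an annotated start among several of Slc25a25).
Dusp1: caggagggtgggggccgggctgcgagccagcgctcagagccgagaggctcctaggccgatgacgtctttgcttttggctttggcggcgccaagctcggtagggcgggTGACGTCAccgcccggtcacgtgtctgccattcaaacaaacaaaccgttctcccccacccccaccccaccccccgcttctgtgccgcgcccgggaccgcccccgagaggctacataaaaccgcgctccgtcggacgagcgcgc
Slc25a25: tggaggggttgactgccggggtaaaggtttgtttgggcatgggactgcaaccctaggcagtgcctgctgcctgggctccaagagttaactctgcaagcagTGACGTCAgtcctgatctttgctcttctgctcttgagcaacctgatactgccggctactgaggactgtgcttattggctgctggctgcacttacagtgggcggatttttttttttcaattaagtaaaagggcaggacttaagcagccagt
TGACGTCA reads the same on both strands. It was in the upstream window of 3 of 24 immediate early genes with an entry (Btg2, Dusp1 and Maff), of 3 of 37 called genes with an entry (Slc25a25, Dusp1 and Wsb1), and of 1.77% of the 27025 genes in the table. Dusp1 and Slc25a25 were shown because they hold the element, so these shares are a description, and an excess was not tested.

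Acute phase and inflammation genes were the list with the most members below an unadjusted p of 0.05 in the upward direction, 18 higher and 4 lower of 44 tested, where 5.37% of all genes were higher and 6.07% lower, but edgeR called 0 of them (DESeq2 6 higher and 1 lower). The median log2 fold change was 0.38. Il1b, which encodes the cytokine interleukin 1 beta, was the member of smallest p and lay in the other direction, with 4.83, 12.8 and 16.1 CPM in WT and 2.41, 1.57 and 1.23 CPM in KO (edgeR adjusted p = 0.0504). Lbp, the lipopolysaccharide-binding protein, was 93.8, 81.3 and 86.9 CPM in WT and 161, 285 and 168 CPM in KO (edgeR adjusted p = 0.0615). Hp, haptoglobin, was 2735, 1376 and 2456 CPM in WT and 4683, 6961 and 4456 CPM in KO (edgeR adjusted p = 0.0958). KO replicate 2 was the highest library for both Lbp and Hp, and without it 10 of the 44 genes were higher at the unadjusted p.

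Of 41 interferon response genes none was called by edgeR or DESeq2, and 11 were higher and 0 lower at an unadjusted p under 0.05 (median log2 fold change 0.28). Trim30a was 5.72, 5.96 and 7.33 CPM in WT and 10.3, 11.1 and 8.43 CPM in KO (edgeR adjusted p = 0.212). Ifi44 was 2.25, 2.68 and 3.48 CPM in WT and 5.37, 5.6 and 4.11 CPM in KO (edgeR adjusted p = 0.227). The groups of both genes did not overlap. Without KO replicate 2, 4 of the 41 were higher at the unadjusted p.

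Most metabolic lists held few changes. Of 47 genes of glucose and glycogen metabolism, 3 were called (Ppp1r3b higher, Eno1b and Dusp1 lower), with 3 higher and 9 lower at the unadjusted p. DESeq2 called 2 higher and 3 lower, and without WT replicate 1 edgeR called 1 higher and 8 lower. Of 23 clock genes, Bhlhe41 was called lower (DESeq2 3 lower), with 1 higher and 5 lower at the unadjusted p. No member was called by edgeR among 38 genes of fatty acid and triglyceride synthesis (7 higher, 0 lower at an unadjusted p under 0.05, DESeq2 2 called), 50 of fatty acid oxidation (3 and 2, DESeq2 3), 29 of cholesterol synthesis (2 and 4, but 6 and 2 without WT replicate 3, DESeq2 1), 34 of bile acid handling (4 and 5, DESeq2 3) and 50 of the urea cycle and amino acid breakdown (2 and 8, DESeq2 2). Without WT replicate 1 the bile acid counts were 4 and 11, and edgeR called 1 higher and 3 lower. Without WT replicate 2 those of fatty acid oxidation were 11 and 2, with 3 called higher. Angptl4, a lipase inhibitor induced by fasting, was 72.2, 78.7 and 79.3 CPM in WT and 144, 126 and 112 CPM in KO (edgeR adjusted p = 0.0643). Fgfr4, the receptor through which FGF15 limits bile acid synthesis, was 52.8, 57.2 and 46.6 CPM in WT and 32.3, 34.1 and 32.6 CPM in KO (edgeR adjusted p = 0.0702). Agxt, a glyoxylate-clearing aminotransferase, was 296, 312 and 227 CPM in WT and 165, 184 and 154 CPM in KO (edgeR adjusted p = 0.0950). Their groups did not overlap, and none passed the adjusted threshold.

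Stress and growth lists held no edgeR call either. Of 42 genes of the unfolded protein and ATF4 response, 8 were higher and 5 lower at an unadjusted p under 0.05 (DESeq2 5 called). These counts were 6 and 9 without WT replicate 2, and 2 and 5 without KO replicate 2. Without WT replicate 1 they were 15 and 5, and edgeR then called 2 higher and 4 lower. Atf4, the transcription factor, was 114, 195 and 144 CPM in WT and 72.9, 79.5 and 70.6 CPM in KO (edgeR adjusted p = 0.0702). Of 31 NRF2 targets 4 were higher and 0 lower (DESeq2 2), of 26 cell cycle genes 6 and 1 (DESeq2 1), of 75 splicing factors 5 and 8 (DESeq2 1), and of 49 translation factors 1 and 1 (DESeq2 0). Without WT replicate 1 the cell cycle counts were 12 and 1, with 2 called higher by edgeR. Splicing factors were then 4 and 20, and translation factors 1 and 6, with 1 of each called lower. Of 74 ribosomal protein genes 0 were higher and 1 lower (DESeq2 0), and of 85 oxidative phosphorylation genes 2 and 2 (DESeq2 1). Without WT replicate 3 the ribosomal counts were 0 and 8. The oxidative phosphorylation counts were then 2 and 14, with 1 called lower by edgeR. Srsf5, a splicing factor, was 137, 144 and 99.8 CPM in WT and 73.5, 80.5 and 80.3 CPM in KO (edgeR adjusted p = 0.116).

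Markers of hepatocytes and of the other liver cells gave no edgeR call. The 20 hepatocyte markers summed to between 153739 and 168402 CPM in WT and between 164864 and 184548 CPM in KO. The summed level of 14 Kupffer cell markers was 602 to 749 CPM in WT and 650 to 703 CPM in KO, and that of 16 endothelial markers 346 to 460 CPM and 396 to 500 CPM. At an unadjusted p under 0.05, 0 hepatocyte, 1 Kupffer cell (Cd163), 1 endothelial (Fcgr2b), 2 of 16 stellate cell (Dcn higher, Tagln lower) and 1 cholangiocyte marker (Epcam) differed. Of 5 lymphocyte, 8 neutrophil and monocyte and 2 pancreas acinar markers tested, 1 of each passed that p. DESeq2 called 1 of all these markers, Dcn. The summed level of red blood cell markers overlapped between genotypes, at 656 to 1380 CPM in WT and 512 to 923 CPM in KO. Of pericentral hepatocyte genes, 1 of 20 was higher and 3 lower, and of periportal genes 3 of 21 were higher and 2 lower, with 0 called by edgeR (DESeq2 2 and 1).

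Some called genes were neighbours on the chromosome. Of 46 called genes with a position under the symbol used here, 10 had another of these 46 within 1 Mb, and 5.74% of tested genes had one that near. The pairs were Cyp2c40 and Cyp2c69, Tmem254a and Plac9b, Btbd19 and Plk3, Dedd2 and Erf, which moved in the same direction in each pair, and Camk1d and Dhtkd1, which moved in opposite directions. RefSeq places A730008H23Rik, under the symbol Hjurp, at chr1:88258856-88277644, within 1 Mb of Ugt1a9 (chr1:88070800-88218997). Both were higher in KO, and this pair is not in the counts above. Chromosome 9 held 7 called genes of 641 tested, the most of any chromosome, among them Wdr72 and Tgfbr2, and this count was looked up after the calls were seen. Of 19 genes tested within 5 Mb of Fmr1, Fmr1 alone was called. Xlr3a, Cd99l2, Hmgb3 and F8a were also lower at an unadjusted p under 0.05, as were 6.07% of all genes. Xlr3a averaged 7.43 CPM in WT and 1.86 CPM in KO (log2 fold change -1.98, edgeR adjusted p = 0.212). The groups of these genes did not overlap (17.3% of all genes). Those of Ids and Vma21, which were higher and missed that p, did not overlap either. These genes are named after their values were seen. Of 10 tested genes known to vary between inbred strains, Wdfy1 was called, with 24.2, 27.3 and 27.1 CPM in WT and 9.22, 14.3 and 12.7 CPM in KO (-1.12 ± 0.18, edgeR adjusted p = 0.0362), and it was not called in 5 of the 6 fits that left out 1 library. Of the same 10, DESeq2 called 2 higher and 1 lower, and 3 were higher and 1 lower at an unadjusted p under 0.05. Whether the KO and WT mice differed in genetic background was not tested, since the labels give no strain.

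The same genes were then looked up in the WT and Fmr1 KO libraries of 5 other tissues, 3 against 3 in each, which had no part in the liver calls. The labels do not say whether these tissues came from the same mice as the livers, so they may not be independent of them. In muscle 39 of the 49 were tested and 10 were called, all in the liver direction, where 4.04% of all genes tested were called. Eno1b was 63.3, 58.1 and 35.2 CPM in muscle of WT and 0.590, 0.426 and 0.463 CPM in KO, a log2 fold change of -6.70 ± 0.31. Plac9b was 9.33, 10.3 and 12.2 CPM in WT muscle and 60.5, 57.8 and 55.2 CPM in KO, and Tmem254a 3.30, 1.35 and 1.74 CPM in WT and 10.2, 8.02 and 11.4 CPM in KO. None of these 3 had overlapping groups. Wdfy1 (-1.06 ± 0.13), Gm12338 (-1.35 ± 0.19), Eepd1 (-0.79 ± 0.13), Glb1 (0.99 ± 0.23) and Tgfbr2 (0.56 ± 0.13) were also called.

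The other 2 genes called in muscle were of the early response class, and there too WT replicate 1 was the lowest WT library. Cyr61 was 67.3, 257 and 311 CPM in WT muscle and 25.8, 9.37 and 19.1 CPM in KO, and Csrnp1 was 7.83, 33.9 and 60.2 CPM in WT and 7.41, 3.83 and 4.69 CPM in KO. Summed over the list, immediate early genes gave 1256, 5123 and 5745 CPM in WT muscle and 2134, 1213 and 1208 CPM in KO, with 8 of 29 called lower. In testis, cortex, hippocampus and cerebellum the sum ranged from 370 to 1030 CPM over all 24 libraries, and 1, 0, 0 and 0 of the list were called by edgeR (4 lower, 4 lower, 2 higher and 2 lower, and 3 higher and 1 lower at an unadjusted p under 0.05).

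In testis 36 of the 49 genes were tested and 4 were called, against 4.27% of all genes. Fmr1 (-1.95 ± 0.11), Csrnp1 (-0.29 ± 0.09) and Erf (-0.52 ± 0.12) moved as in liver, and Wdfy1 (0.31 ± 0.09) moved the other way, with overlapping groups for Csrnp1 and Wdfy1. DESeq2 called neither Csrnp1 nor Wdfy1 in testis (DESeq2 adjusted p = 0.0833 and 0.366). Wdfy1 was 102, 96.7 and 106 CPM in WT testis and 120, 102 and 158 CPM in KO testis. In cortex, hippocampus and cerebellum only Fmr1 was called of 38, 39 and 38 tested, where 0.0203%, 0.209% and 0.226% of all genes were. In muscle Fmr1 was 12, 17.6 and 14.2 CPM in WT and 8.06, 10.2 and 10.3 CPM in KO, and it missed the threshold (-0.61 ± 0.17, edgeR adjusted p = 0.0734). Of the 11 genes with the largest liver changes, 7 were tested in muscle and 2 called, and 6 to 8 were tested in each other tissue and 0 called there. Eno1b was tested in the brain regions and testis and not called. It averaged 49.2 CPM in WT testis and 49.4 CPM in KO testis, and 17.1 CPM in WT cortex and 15.8 CPM in KO cortex. Of the 9 graded genes, 7 were tested in muscle and 0 called.

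**Figure D5:**
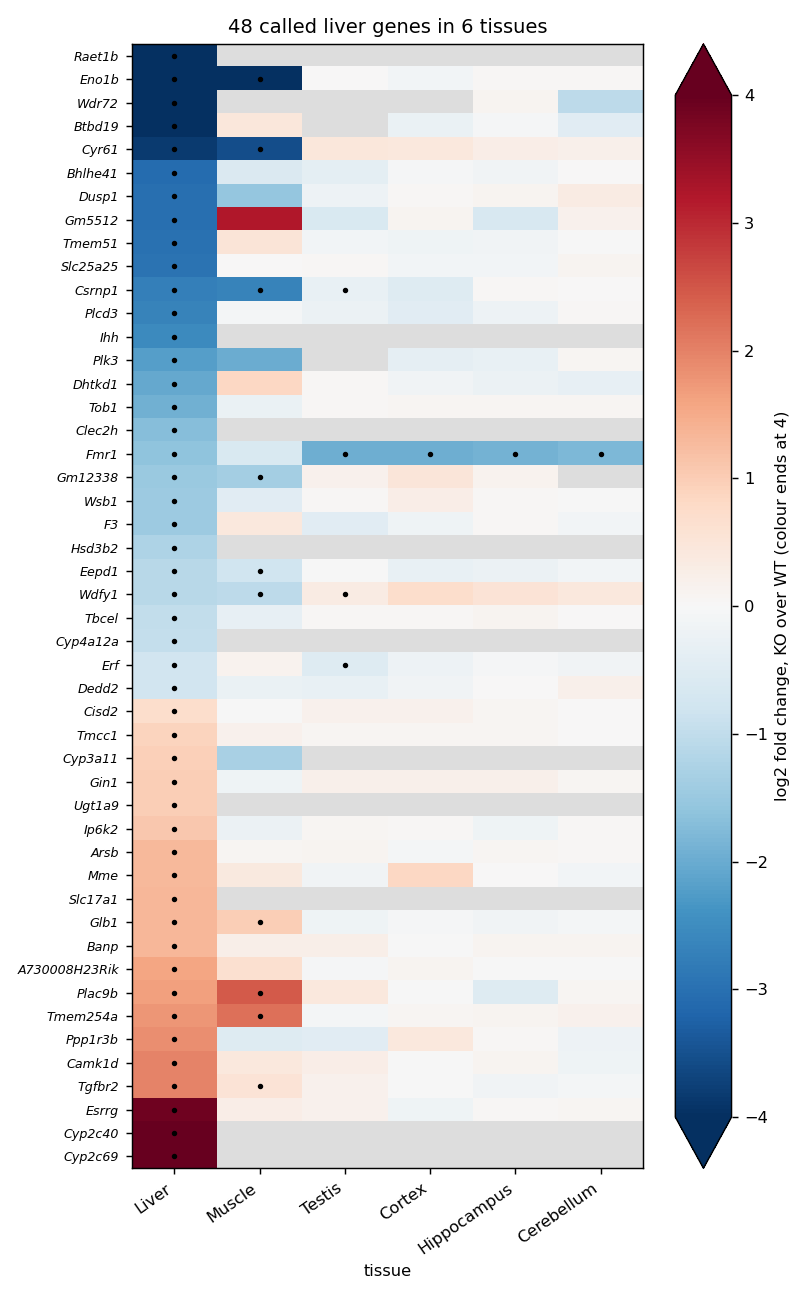
Log2 fold change of KO over WT (colour, ending at 4 in each direction) for 48 of the called liver genes in liver, muscle, testis, cortex, hippocampus and cerebellum. Black dots mark adjusted p under 0.05 and grey marks genes not tested. Muscle carries dots for 10 genes, among them Eno1b, Plac9b and Tmem254a, and Fmr1 is the only gene with dots in all 3 brain regions.

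Splicing was compared from the junction reads of the deposited rMATS tables, which call the 2 groups of 3 liver replicates set 1 and set 2. The genotype of each set is not stated in the sources used here, so differences are set 1 minus set 2 and no direction by genotype is given. Inclusion is the percent of length-corrected junction reads that support the longer form. Each replicate had 10141763 to 12177764 inclusion reads over the skipped exon table. At an adjusted p under 0.05 and a difference of at least 10 percentage points, 0 of 9996 skipped exons were called (0%) by the quasi-binomial test, with 304 at an unadjusted p under 0.05, while 165 of all 13852 listed exons passed by the rMATS false discovery rate and the same difference, 69 of them among the 9996. For alternative acceptor sites 0 of 464, for mutually exclusive exons 0 of 1592 and for retained introns 0 of 51 were called (33, 176 and 6 at an unadjusted p under 0.05, and 37, 73 and 3 of all listed by rMATS, of which 9, 53 and 2 were among those tested), and for alternative donor sites 1 of 276 (0.362%).

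The called event was in Ube2j2, an E2 enzyme of protein breakdown at the endoplasmic reticulum, at a donor site in the 5′ untranslated region (exon chr4:155943813-155944150 in the long form). The long form made up 56.2%, 77.7% and 52.3% of set 1 and 23.5%, 4.82% and 30.6% of set 2. No replicate of one set reached the other, and the difference was 42.4 points (quasi-binomial adjusted p = 0.000799). It was not called without replicate 2 of set 1 (34.6 points, quasi-binomial adjusted p = 0.0627) or without replicate 2 of set 2 (35 points, quasi-binomial adjusted p = 0.112). The level of Ube2j2 was not called.

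Another 8 events passed the adjusted p with a difference under 10 points, in Nudt7 (2 events), Ndufs6, Akr1c6, Etnppl, Ces3a, Gsta3 and Ces3b, and they are named after their values were seen. Nudt7, which breaks down coenzyme A in peroxisomes, used a downstream donor site in 11%, 10.5% and 9.70% of set 1 and 0.391%, 0.468% and 0.965% of set 2, a difference of 9.80 points (quasi-binomial adjusted p = 5.44e-58). The 2 joins are shown from GENCODE M21 transcripts (GRCm38), with the last 30 bases before each donor site (chr8:114135411-114135440 and chr8:114133671-114133700, plus strand) and, in capitals, the first 20 bases of the exon they join, which starts at 114136338.
Nudt7, downstream donor: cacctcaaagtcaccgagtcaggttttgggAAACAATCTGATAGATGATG
Nudt7, upstream donor: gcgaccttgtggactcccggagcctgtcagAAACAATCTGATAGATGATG
An exon of Akr1c6, a hydroxysteroid dehydrogenase (chr13:4446352-4446429), was included in 91.7%, 90.9% and 91.8% of set 1 and 93.9%, 95.0% and 94.6% of set 2 (difference -3.02 points, quasi-binomial adjusted p = 1.22e-06). An exon of Etnppl, a phosphoethanolamine lyase, differed by 9.04 points (quasi-binomial adjusted p = 0.000112), with set 2 replicate 2 at 77.1% and the other 5 replicates between 93.0% and 100%. The sets did not overlap for Nudt7 and Akr1c6 and overlapped for Etnppl.

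Xbp1, the transcription factor of the unfolded protein response, is shown because its 26-base segment is the one known to be removed by the stress sensor IRE1. The segment (capitals, chr11:5524282-5524307) with 12 bases on either side, from GENCODE M21 on GRCm38, is as follows.
Xbp1: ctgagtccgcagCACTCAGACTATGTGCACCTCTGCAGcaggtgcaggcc
It was kept in 88.7%, 90.2% and 89.0% of junction reads of set 1 and in 68.4%, 51.2% and 79.3% of set 2, without overlap. The difference of 23 points did not pass the adjusted threshold (quasi-binomial adjusted p = 0.385, unadjusted p = 0.0425), and rMATS gave it a false discovery rate of 5.43e-07. It was called with the replicate block, with the prior from all events, and in 2 of the 6 fits that left out a replicate. Xbp1 was chosen after its values were seen.

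No Fmr1 event reached the minimum for a test, a mean of 20 reads of both forms in each set. The exon at chrX:68710584-68710779 had 8, 8 and 15 inclusion reads and 2, 0 and 0 skipping reads in set 1, and 28, 48 and 20 inclusion reads in set 2. For Wdr72 the exon at chr9:74275936-74276040 had 1, 0 and 0 inclusion reads in set 1 and 6, 17 and 14 in set 2. No gene with an event named here was called for its level other than Fmr1 and Wdr72. With another prior for the spread between replicates, 13 liver skipped exons were called. Of those, 7 to 11 could be tested in each other tissue and 0 were called there, where the share of all skipped exons called was 0.0727% in muscle, 0.00582% in testis and 0% in the brain regions.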

How the data were processed

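Gene tables held whole-number read counts per gene and sample, which the authors deposited with log2 fold changes and adjusted p-values of their own. The submitters' processing notes name CASAVA, FastQC 0.11.8, Trimmomatic 0.39, Bowtie2 2.3.5, STAR 2.6.1, RSEM 1.3.1, DESeq2 1.16.1 and GRCm38/mm10, without their order. Strand use in counting is not given in the sources used here, so overlapping genes are uncertain. Replicates came from sample titles.

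Counts were filtered (filterByExpr), scaled (TMM) and tested per tissue with edgeR 4.0.16 (quasi-likelihood F test, Benjamini-Hochberg, R 4.3.3). DESeq2 1.42.0 was an alternative. The common biological coefficient of variation was 18.5%. Named were Fmr1, genes changed at least 8-fold, the 10 next largest in each direction (mean of at least 50 counts), called list members, and up to 3 of smallest p per uncalled list. A gene that the rule names is not reported here and is left out of the figures, while the counts include it. Members and lists were chosen with earlier results of these data known.

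Junction counts, with the p-values, ratios and FDR the authors deposited from rMATS, were retested per event (mean of at least 20 reads in each set) with a quasi-binomial model. Its dispersion prior was changed after a first fit had been seen, on simulated null events. The change took called skipped exons from 13 to 0. Exons matched GENCODE M21 in 99.4% of 13852 events. In simulated data, 80 of 100 genes changed 2-fold and 100 of 100 changed 8-fold were recovered, as were 32 of 100 exons changed by 25 points and 79 of 100 by 40. For muscle, 4 deposited columns of no labelled sample were left out. Upstream sequence came from RefSeq, with 37 of 49 called genes matched.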

Additional observations from a re-analysis of the deposited data

Results flagged for a closer look

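In 9 cases a gene called in liver had all 3 KO libraries of another tissue on the opposite side of its WT libraries from where they lay in liver. None was called in the other tissue, and the difference between tissues was not tested. Of the 49 genes, 39 were tested in muscle, 36 in testis, 38 in cortex, 39 in hippocampus and 38 in cerebellum. The share of all genes separated in this way in those tissues was not counted, so the 9 cases cannot be read as an excess. In muscle the log2 fold change was 0.82 for Dhtkd1 (-2.04 in liver), -0.51 for Ppp1r3b (1.85 in liver) and 0.41 for F3 (-1.44 in liver). For Cyr61 (-3.83 in liver) it was 0.44 in testis and 0.25 in hippocampus. In cortex it was 0.25 for Wsb1 (-1.46 in liver), and in hippocampus it was -0.17 for Ip6k2 (1.07 in liver). In cerebellum it was -0.18 for Camk1d (1.98 in liver) and 0.11 for Slc25a25 (-2.96 in liver).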

How the results depend on the processing

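No called gene turned direction under the alternatives run, and the direction of named genes that were not called was not followed. The balance of higher and lower genes at the unadjusted p turned in some lists when 1 library was left out. Among them were conjugation and transport, the unfolded protein response and cholesterol synthesis. DESeq2 called 277 genes (103 higher, 174 lower), among them all 49, with 67 list genes and 26 changed at least 8-fold, against 12 and 11 by edgeR. RLE size factors and no filter on low counts gave 50 and 53 genes. With the replicate number as a block, 24 genes were called (8 higher, 16 lower), 22 of them among the 49, with 7 list genes and 7 changed at least 8-fold. Same-numbered samples correlated at -0.01, -0.08 and -0.17, so the numbers were not taken as pairs. Leaving out 1 library gave 13 to 284 genes (6 to 70 higher, 7 to 214 lower), 5 to 71 list genes and 6 to 31 changed at least 8-fold. The count was 284 without WT replicate 1, 89 without WT replicate 2, and 21, 20 and 13 without KO replicate 1, 2 or 3. With the boundary at 2 on the log2 scale, 18 genes had large changes. They had 4 calls in other tissues (1 in testis), against 2 calls (0 in testis) with the boundary at 3. Csrnp1 was called in both muscle and testis and enters these 4 calls for each. Called skipped exons numbered 1 with a minimum of 10 reads, 1 with a difference of 0.05, 165 by rMATS (16 of them also in another tissue), 13 with the prior from all events, 0 with the block and 0 to 1 with 1 replicate left out. Other called events, 1 in the report, numbered 0 with a minimum of 50 reads, 3 with a difference of 0.05, 142 by rMATS, 3 with the prior from all events, 17 with the block and 0 to 71 with 1 replicate left out, 71 being without set 2 replicate 3. The cause of these shifts was not tested. The prior was added after the data were seen.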
